A study of Mus musculus with 14 samples.

Results

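The genes described here are 9 of the 37680 genes counted in mouse colonic epithelium, namely the fatty acid oxidation genes Cpt1a, Cpt2, Acadm, Acads and Acadl, the nuclear receptors Ppara and Pparg, and the fuel-switching genes Pdk4 and Angptl4. They were chosen by symbol, with earlier results of these data known. All 9 were found in the count table and passed the filter on low counts in every comparison. Although the set was assembled around ketogenesis as well, none of the 9 encodes an enzyme that makes ketone bodies; ketone body genes are described with the related pathways.

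Long-chain fatty acids enter mitochondria as carnitine esters, which CPT1 forms on the outer membrane and CPT2 converts back inside. Acyl-CoA dehydrogenases then start each round of beta-oxidation, with different members acting on long, medium and short chains. PPARs are fatty acid sensing receptors that bind DNA with RXR and are known to induce many of these genes. Colonocytes are known for burning butyrate, a short-chain fatty acid made by gut bacteria, as their main fuel.

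The libraries formed 4 groups. WT mice on water (n = 4) and WT mice given 2.5% dextran sulfate sodium (DSS), an epithelial irritant, for 3 d (n = 3) were set against Smad4 knockout (KO) mice on water (n = 4) and KO mice given the same DSS (n = 3). KO mice carried Smad4 f/f and Villin-CreERT2, an intestinal epithelial Cre that tamoxifen switches on, all mice were 8 to 14 weeks old on a C57/BL6 enriched background, and colons were taken around midday. The scheme of the study drew tamoxifen for the KO mice only, so tamoxifen and genotype cannot be told apart. Where nothing ties the libraries to separate litters or preparations, p-values measure the spread between these samples only.

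Epithelial markers such as Epcam and Vil1 summed to between 7654 and 13160 CPM (read counts scaled to a common library size with TMM factors) in every library. Smad4 itself stood between 115 and 183 CPM in the 7 WT libraries and between 34.9 and 46.6 CPM in 6 of the 7 KO libraries. The library labelled KO water replicate 1 held 158 CPM, a WT level, and differences that use it are also given without it for the genes the results turn on. The figure legends of the study count 3 KO replicates on water, without saying which. Mitochondrial genes took 30.6% and 32.8% of the counts in WT water replicates 3 and 4 and 21.4% in KO water replicate 4, against 4.05% to 8.23% in the other libraries. The WT water replicates 1 and 2, WT DSS replicates 1 and 2 and all KO DSS libraries share a name prefix (D) whose meaning the labels do not give, and in KO mice prefix and treatment cannot be told apart. No KO water library has this prefix, so prefix is also unbalanced between the genotypes on water.

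The 9 genes fell into 2 ranges of level. Per kb of exon, the median over the 14 libraries was 89.9 CPM for Acads, 84.2 for Acadl, 55.5 for Cpt1a, 38.1 for Acadm, 36.1 for Cpt2 and 31.1 for Pparg. Ppara followed at 1.17, Pdk4 at 0.453 and Angptl4 at 0.273 CPM per kb. The ranges of Acads (63.3 to 125) and Acadl (51.5 to 109) overlapped, as did those of Acadm, Cpt2 and Pparg, whereas the lowest Pparg value (14.9) was far above the highest Ppara value (1.64).

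**Figure D1:**
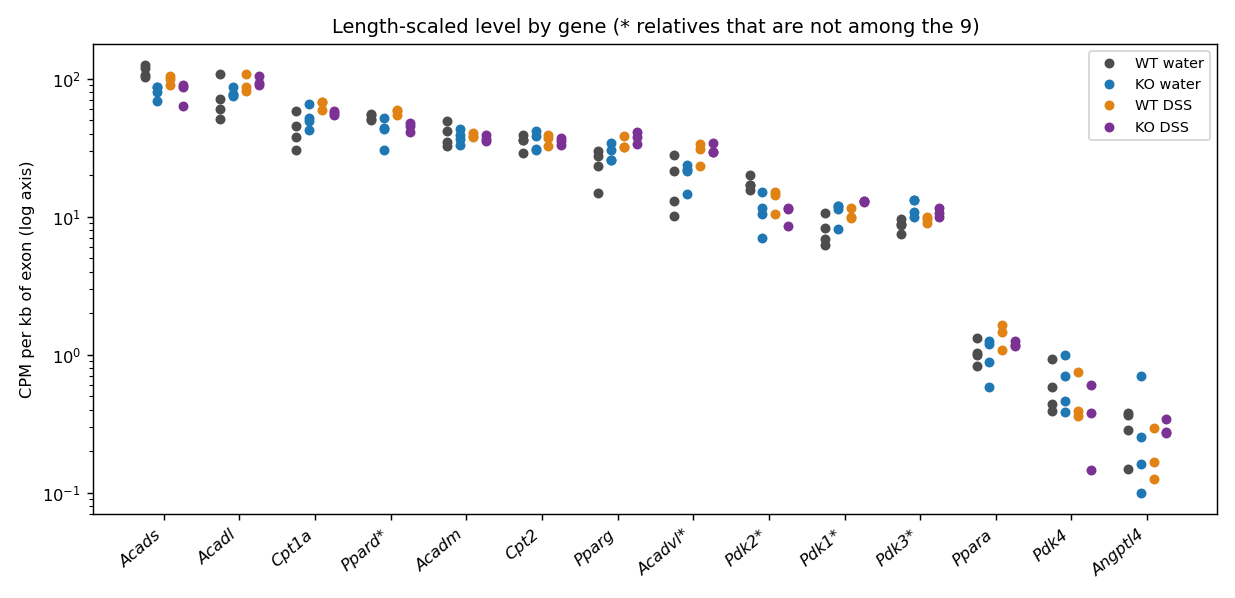
Level of each gene in CPM per kb of exon on a log axis, 1 point per library coloured by group, with genes ordered by their median and 5 relatives marked by an asterisk. Acads, Acadl and Cpt1a lead the order, Ppard stands at 50.8 between Cpt1a and Acadm, and Ppara, Pdk4 and Angptl4 lie at about 1 or below.

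Relatives of the 9 genes placed these levels in their families. Cpt1a, the liver-type carnitine palmitoyltransferase, made up 98.3% to 99.9% of the per kb total of the Cpt1 genes, with Cpt1b (the muscle type, at most 11 counts) and Cpt1c (at most 16 counts) near the limit of detection. Ppard, the third PPAR, had a median of 50.8 CPM per kb, above both Pparg and Ppara. Pdk4, a kinase that switches off pyruvate dehydrogenase, was 0.414% to 2.72% of the Pdk total, while Pdk1, Pdk2 and Pdk3 had medians between 9.90 and 13.0 CPM per kb.

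In the coordinates of mm9, Cpt1a lies on chromosome 19 from 3323301 to 3385732 on the plus strand, and Cpt2 on chromosome 4 from 107576586 to 107596215 on the minus strand. Acadm lies on chromosome 3 (153585321 to 153607596), Acads on chromosome 5 (115560308 to 115569355) and Acadl on chromosome 1 (66877413 to 66909851), all on the minus strand. Ppara is on chromosome 15 (85565413 to 85633249) and Pparg on chromosome 6 (115311239 to 115440419), both on the plus strand. Pdk4 (chromosome 6, 5433351 to 5446309) and Angptl4 (chromosome 17, 33910695 to 33918520) are on the minus strand. No exon of the 9 genes is shared with another annotated gene.

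Among the regulators, Pparg, which in colonic epithelium is a receptor of differentiated cells, was higher after DSS in WT mice in every library, without passing the adjusted test. It stood at 55.0, 59.3, 46.4 and 29.6 CPM in WT water replicates 1 to 4 and at 76.9, 63.1 and 63.8 CPM in WT DSS. In KO mice it stood at 50.8, 51.0, 67.9 and 60.2 CPM on water and at 75.0, 67.2 and 81.8 CPM after DSS. The WT groups did not overlap, with the lowest value in a library of high mitochondrial share, while in KO mice the highest water library lay just above the lowest DSS library.

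The difference in Pparg between DSS and water was 0.50 on the log2 scale in WT mice (95% interval 0.046 to 0.95, edgeR adjusted p = 0.169) and 0.36 in KO mice (95% interval 0.022 to 0.70, edgeR adjusted p = 0.747). Without the WT water libraries of high mitochondrial share, the WT value was 0.26. Within the libraries of prefix D it was 0.30. The genotype difference in Pparg was 0.27 on water and 0.13 after DSS on the log2 scale, with edgeR adjusted p of 0.465 and 0.609. Without KO water replicate 1, the Pparg difference was 0.33 on water and 0.30 for DSS in KO mice, and neither was called.

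Ppara, the receptor that drives fatty acid oxidation in liver, was scarce in these libraries. It stood at 3.17, 3.97, 3.80 and 5.07 CPM in WT water, 4.58, 3.42, 4.83 and 2.24 in KO water, 6.31, 4.13 and 5.61 in WT DSS and 4.87, 4.51 and 4.47 in KO DSS. These levels rest on 42 to 137 reads a library, and the groups overlapped in all 4 comparisons. The widest 95% interval of a Ppara difference, KO against WT on water, ran from -0.85 to 0.68 on the log2 scale.

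Cpt1a, which controls the entry of long-chain fatty acids, separated the DSS-treated from the water-treated WT libraries. It stood at 196, 252, 162 and 132 CPM in WT water and at 294, 257 and 294 CPM in WT DSS. KO water libraries held 222, 213, 281 and 182 CPM, and KO DSS libraries 235, 252 and 243 CPM. The means were 185 ± 51.6 CPM (SD, n = 4) in WT water, 224 ± 41.3 (n = 4) in KO water, 282 ± 21.4 (n = 3) in WT DSS and 243 ± 8.86 (n = 3) in KO DSS, so the KO DSS libraries all lay below the WT DSS libraries and within the range of KO water.

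After DSS, Cpt1a in WT mice was 1.51-fold its level on water (log2 difference 0.59, SE 0.19), with an edgeR adjusted p of 0.113. DESeq2 called it, with an adjusted p of 0.0390, in a fit that called 12.0% of all genes tested. Without WT water replicate 2, the highest of its group, edgeR also called it (log2 difference 0.78, adjusted p = 0.0478), where 3.20% of genes were called. Without the libraries of high mitochondrial share, which were the lowest of their group for Cpt1a, the difference was 0.34 (edgeR adjusted p = 0.213), and within the libraries of prefix D it was 0.31 (edgeR adjusted p = 0.415).

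In KO mice the same difference in Cpt1a was 0.099 on the log2 scale (95% interval -0.26 to 0.46, edgeR adjusted p = 0.941). The KO response minus the WT response was -0.50 on the log2 scale (SE 0.27, edgeR adjusted p = 0.660), so the responses were not shown to differ. Without KO water replicate 1 these values were 0.090 and -0.51, neither of them called. After DSS, the log2 difference between KO and WT libraries was -0.22 (95% interval -0.44 to 0.00077, edgeR adjusted p = 0.320).

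Cpt2, the partner enzyme on the inner membrane, had ranges that overlapped in all groups. It ranged from 68.4 to 93.5 CPM in WT water, 72.7 to 99.0 in KO water, 77.6 to 92.9 in WT DSS and 78.7 to 88.4 in KO DSS. The group means lay between 83.3 and 86.5 CPM, and the 4 log2 differences between -0.053 and 0.038. The 95% intervals of these differences stayed within -0.37 and 0.37.

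Acads, the short-chain acyl-CoA dehydrogenase, which acts on butyrate, was the gene of the 9 whose WT and KO libraries on water did not overlap. WT water libraries held 284, 240, 235 and 272 CPM and KO water libraries 197, 157, 181 and 197 CPM. After DSS, WT libraries held 204, 227 and 238 CPM and KO libraries 144, 198 and 204 CPM. On water the gap between the groups ran from 197 to 235 CPM, and after DSS the highest KO library lay just above the lowest WT library. KO water replicate 1, with Smad4 at a WT level, held 197 CPM of Acads and lay below the WT range.

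On water, the mean of Acads was 258 ± 24.1 CPM (SD, n = 4) in WT and 183 ± 19.0 (n = 4) in KO, a log2 difference of -0.50 (SE 0.15, 95% interval -0.82 to -0.17). The edgeR fit of both groups gave a p of 0.00605 unadjusted and 0.153 adjusted, so the difference was not called. DESeq2 called it (adjusted p = 0.0238), in a fit that called 5.46% of the genes tested. The edgeR models of all 14 libraries and of all but KO water replicate 1 called it too (adjusted p = 0.0403 and 0.0474), where 8.44% and 7.66% of genes were called. Without KO water replicate 1, the library with Smad4 at a WT level, the log2 difference was -0.53 and the edgeR adjusted p was 0.192, and without KO water replicate 4 edgeR called it (adjusted p = 0.0484), together with 12.6% of all genes tested. Over 17 alternative settings the log2 difference stayed between -0.54 and -0.44, with edgeR adjusted p up to 0.378. These settings included the fit without libraries of high mitochondrial share.

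The summed level of 7 colonocyte markers ran from 4036 to 5013 CPM in WT water and from 2515 to 3668 CPM in KO water, and from 3195 to 4127 CPM in WT DSS and 2475 to 3155 CPM in KO DSS. Their part in the Acads result was not tested. In bulk epithelium, fewer cells of a type and less RNA per cell cannot be told apart. The 7 markers were not called on water, while after DSS Car4, Aqp8 and Krt20 were called lower in KO, when the log2 difference in Acads was -0.30 (SE 0.14, edgeR adjusted p = 0.342). Of 6 goblet cell markers, Fcgbp and Zg16 were called lower, 2 others were below 0 and 2 above 0 without a call, and of 4 tested fibroblast markers the collagens Col1a1, Col1a2 and Col3a1 were called higher in KO after DSS. The 6 fibroblast markers summed to 0.276 to 1.90 CPM in WT DSS and 7.30 to 13.1 CPM in KO DSS, and to 0.889 to 3.93 CPM in WT water and 2.95 to 24.7 CPM in KO water, and their part in the levels of the 9 genes was not tested.

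Acadl, which acts on long chains, varied most among the WT water libraries. It stood at 144, 219, 122 and 103 CPM in WT water and at 150, 175, 155 and 152 CPM in KO water. WT DSS libraries held 176, 163 and 216 CPM and KO DSS libraries 187, 212 and 182 CPM. The KO DSS libraries all lay above the KO water libraries, with a log2 difference of 0.27 (SE 0.14, edgeR adjusted p = 0.748) that was 0.25 without KO water replicate 1. In WT mice the difference was 0.32 (edgeR adjusted p = 0.400), with the lowest values in both libraries of high mitochondrial share. It was 0.033 without them and -0.093 within the libraries of prefix D.

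Acadm, the medium-chain enzyme, ran from 95.9 to 146 CPM in WT water, 97.2 to 127 in KO water, 110 to 118 in WT DSS and 104 to 115 in KO DSS. Its 4 log2 differences lay between -0.070 and -0.052, with edgeR adjusted p from 0.742 to 0.972. Per kb, Acads was 2.13- to 3.67-fold the level of Acadm in WT water libraries and 1.90- to 2.40-fold in KO water libraries, so these ranges overlapped.

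**Figure D2:**
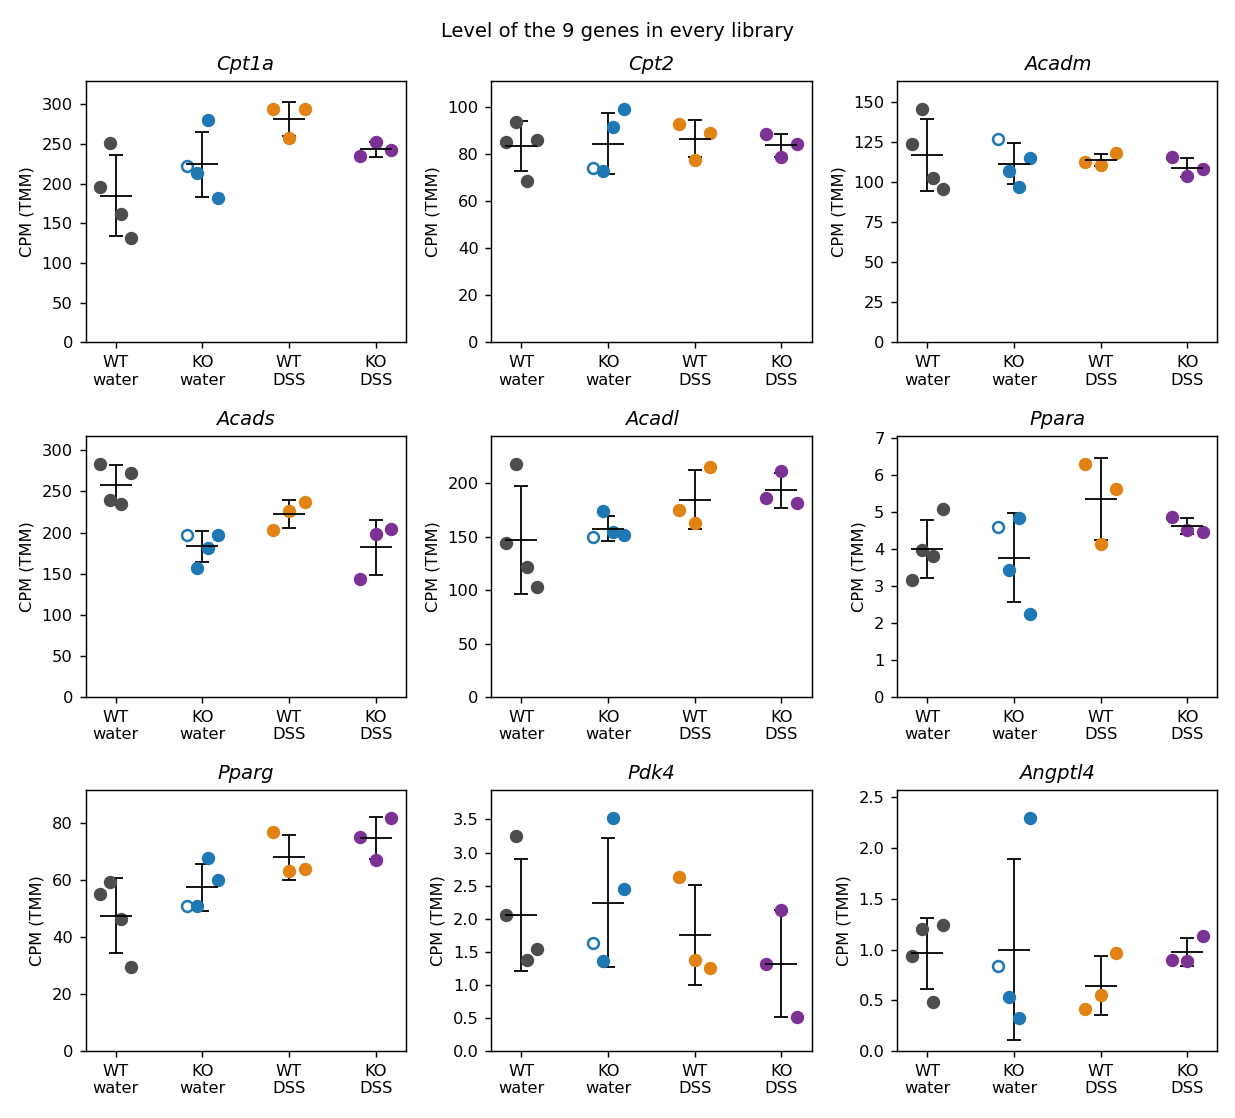
CPM of each of the 9 genes (linear axes from 0) in every library by group, with bars for the mean and SD; the open circle is the library labelled KO water replicate 1. Acads is lower in all 4 KO water libraries (157 to 197 CPM), the open circle included, than in the WT water libraries (235 to 284 CPM). Cpt1a and Pparg are higher in all WT DSS than in all WT water libraries.

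Pdk4 and Angptl4, which many tissues switch on in fasting through PPARs, were close to the limit of detection. Pdk4 was counted 15 to 73 times in WT water, 23 to 86 in KO water, 30 to 57 in WT DSS and 10 to 43 in KO DSS libraries. Angptl4, a secreted inhibitor of lipoprotein lipase, was counted 6 to 27 times in WT water, 8 to 43 in KO water, 9 to 23 in WT DSS and 17 to 22 in KO DSS libraries. The groups overlapped in every comparison for both genes.

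At this depth only large changes in these genes could have been resolved. The largest differences were -0.78 for Pdk4 between DSS and water in KO mice (SE 0.55) and -0.59 for Angptl4 in WT mice (SE 0.52), on the log2 scale. The highest Angptl4 value, 2.29 CPM, was in KO water replicate 4, a library of high mitochondrial share. Adipocytes are a rich source of Pparg and Angptl4, and of the adipocyte markers Plin1 was at 0 in all 14 libraries, Adipoq, Lep, Fabp4, Cfd and Retn were at 7 counts or fewer in every library, while Cidec stood at 1.98 to 5.41 CPM (up to 145 counts).

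Over the 9 genes, edgeR called none in any comparison. After DSS, KO against WT, 0 of 9 were called where 0.801% of all genes tested were, with no member under an unadjusted p of 0.05 (15.7% of all genes) and none called by DESeq2 (3.45% of genes). On water, 0 of 9 were called (background 0.00686%), 1 lay under an unadjusted p of 0.05 (21.0% of all genes) and DESeq2 called 1 (5.46% of genes). For DSS against water in WT mice, 0 of 9 were called (background 0%), 2 lay under an unadjusted p of 0.05 (25.1% of all genes) and DESeq2 called 1 (12.0% of genes). In KO mice 0 of 9 were called (background 0.00694%), 1 lay under an unadjusted p of 0.05 (6.54% of all genes) and DESeq2 called 0 (0.486% of genes).

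Groups did not overlap for 1 of 9 genes in KO against WT after DSS, where 22.2% of all genes tested did not, and for 1 of 9 on water (10.6% of genes). The count was 2 of 9 for DSS against water in WT mice (24.9%) and 1 of 9 in KO mice (9.15%). These shares were near or below the background in each comparison. The median log2 difference over the 9 genes was -0.067, 0.032, 0.038 and -0.029 in these 4 comparisons, beside 0.0044, -0.0072, -0.017 and -0.020 over all genes tested. The test of the difference between the KO and WT responses to DSS called 0 of 9 (background 0.00661%), with adjusted p from 0.660 to 0.999, no member under an unadjusted p of 0.05 (7.50% of all genes) and none called by DESeq2 (0.0529% of genes).

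**Figure D3:**
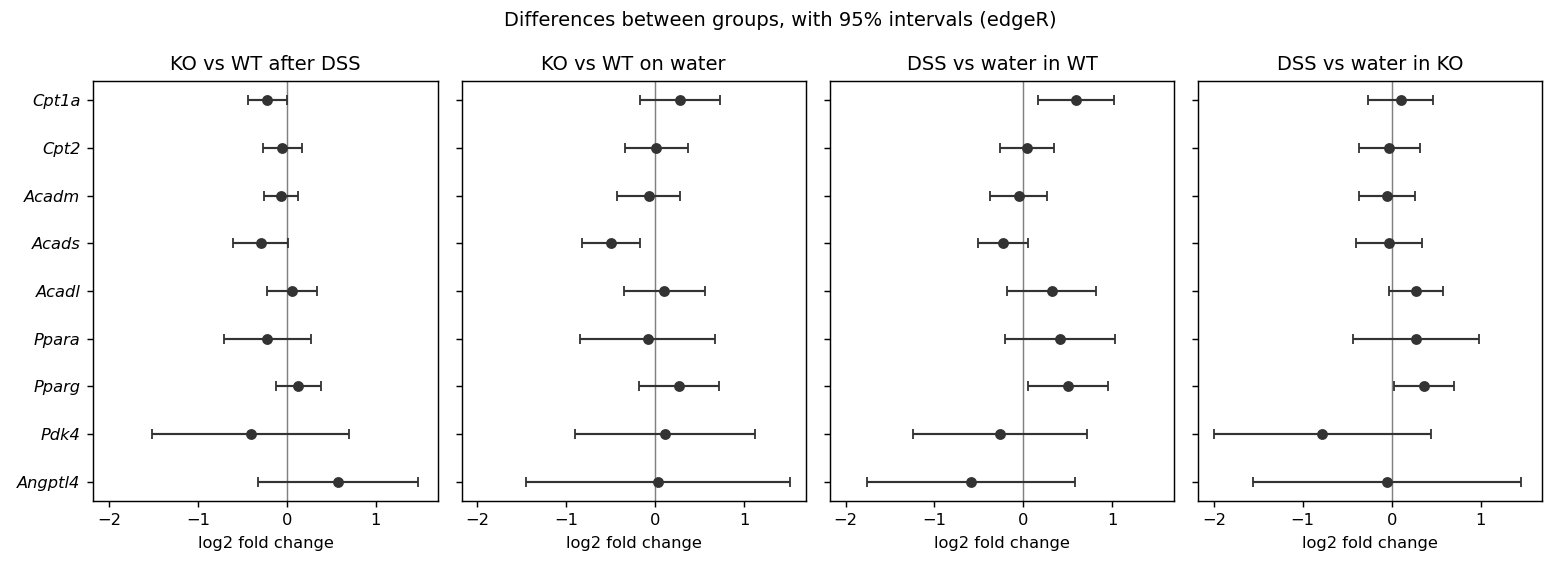
Log2 differences of the 9 genes (points) with 95% intervals (bars) from edgeR in 4 comparisons. The intervals that leave out 0 are those of Acads on water (-0.82 to -0.17) and of Cpt1a and Pparg after DSS in WT mice and Pparg after DSS in KO mice; none of these was called after adjustment over all genes.

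Some of the 9 genes varied together across libraries. The Pearson r of log2 CPM over 14 libraries was 0.83 for Cpt1a and Pparg, 0.82 for Cpt1a and Acadl and 0.74 for Acadl and Pparg. In the 11 libraries with under 20% mitochondrial counts these values were 0.57, 0.45 and 0.30, and without the 2 libraries farthest from the median of Cpt1a (for the last pair, of Acadl) they were 0.52, 0.53 and 0.32. Cpt1a and Ppara had an r of 0.44 over 14 libraries and 0.84 over the 11. For this pair r was 0.89 without the 2 libraries farthest from the median of Cpt1a. It was 0.32 without the 2 farthest from the median of Ppara. The points share group, library and mitochondrial share, so these values only describe the libraries.

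The tested genes whose pattern over the 14 libraries was closest to each of the 9 came from many functions. Cpt1a was closest to Nfkb1 (r = 0.95), an NF-kappaB subunit, P2ry2 (0.95) and Cap1 (0.95). Acads was closest to Lrrc68 (0.96), Ucp2 (0.93), a mitochondrial carrier, and Phb2 (0.93), a prohibitin of the inner mitochondrial membrane. Acadl was closest to Ddit4 (0.92), Sdha (0.90), a subunit of succinate dehydrogenase, and Gm5529 (0.88).

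For Acadm the closest genes were Fam3a (0.97), Pdcl3 (0.92) and Ebp (0.89), and for Pparg they were Pank2 (0.95), which starts coenzyme A synthesis, Mrps18b (0.94) and Actl6a (0.92). Cpt2 was closest to Ctsb (0.84), Rhbdf2 (0.82) and 0610009L18Rik (0.80). Among the scarce genes, Ppara was closest to Ogfrl1 (0.90), Zfyve26 (0.86) and Srsf4 (0.85). Pdk4 was closest to 4930539E08Rik (0.86), Acad10 (0.80) and Abcg2 (0.73), and Angptl4 to Crtap (0.84), Myst1 (0.82) and Gimap7 (0.82).

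Around the 9 genes, 8 lists of 104 genes covered fatty acid uptake and activation, mitochondrial and peroxisomal beta-oxidation, ketone bodies, PPAR partners, other PPAR targets, pyruvate dehydrogenase and fatty acid synthesis. The edgeR fits called 0 of 89 tested genes higher or lower in KO against WT after DSS and 0 of 91 on water. They called 0 of 90 for DSS against water in WT mice, 0 of 91 in KO mice and 0 of 92 for the difference of the responses. The lowest edgeR adjusted p in these lists was 0.0852, that of Aacs in WT mice.

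DESeq2 called 7 of these list genes after DSS, 12 on water, 9 for DSS in WT mice, 0 for DSS in KO mice and 0 for the difference of the responses. Among all genes tested, DESeq2 called 3.45%, 5.46%, 12.0%, 0.486% and 0.0529% in the same order. The list genes named from here on were picked after their values were seen. In KO against WT after DSS, DESeq2 called Acsl3 and Slc27a2 (acyl-CoA synthetases), Acox2 and Scd1 (a desaturase) higher, and Acaa1a (peroxisomal thiolase), Ppard and Mlxipl (a carbohydrate-sensing transcription factor) lower. The edgeR adjusted p of these 7 genes ran from 0.0936 for Mlxipl to 0.135 for Acox2.

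Ppard stood at 254, 276 and 272 CPM in WT DSS and at 191, 221 and 211 CPM in KO DSS. These groups did not overlap, and the log2 difference was -0.37 (SE 0.10, edgeR adjusted p = 0.130). On water, KO libraries 1 to 4 held 241, 142, 205 and 199 CPM and WT libraries 234 to 256 CPM, so the library with Smad4 at a WT level was the KO library that lay within the WT range.

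In the mitochondrial beta-oxidation list, 17 of 17 genes were tested, and 13 were above 0 for DSS against water in KO mice, with a median log2 difference of 0.16, while 47.0% of all genes tested were above 0. Without KO water replicate 1, 12 of 17 were above 0, with a median of 0.19. The lowest p there was that of Acadvl, the very long-chain dehydrogenase, at 64.1, 57.7, 60.1 and 39.3 CPM on water and 91.6, 79.6 and 78.8 CPM after DSS in KO mice (log2 difference 0.57, SE 0.17, edgeR adjusted p = 0.681; 0.65 without KO water replicate 1). Acadvl was also higher after DSS in WT mice by 0.68 (edgeR adjusted p = 0.186). The lowest water values, 35.1 and 27.2 CPM in WT mice and 39.3 CPM in KO mice, were in the libraries of high mitochondrial share. In WT mice after DSS, 12 of the 17 list genes were above 0 (median 0.10), where 48.5% of all genes tested were. The lowest p in that comparison was that of Etfb, which was lower after DSS (log2 difference -0.43, edgeR adjusted p = 0.0942). DESeq2 called it. In KO against WT on water, 7 of the 17 were above 0 (median -0.023), where 49.4% of all genes tested were. DESeq2 called Eci1 lower there (log2 difference -0.54, edgeR adjusted p = 0.153, and -0.61 without KO water replicate 1). The comparison on water shares its libraries with both DSS comparisons.

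In the ketone body list, Aacs, which returns acetoacetate to lipid synthesis in the cytosol, had a mean of 130 ± 33.3 CPM (SD, n = 4) in WT water and 246 ± 1.61 CPM (SD, n = 3) in WT DSS, a log2 difference of 0.90 (SE 0.17) that DESeq2 called. WT water replicates 3 and 4 had a high mitochondrial share, and a value without them is not given here. The list also held Bdh1, which interconverts the ketone bodies, and Oxct1, which uses them. Between KO and WT after DSS, their log2 differences were -0.064 and 0.022. Oxct1 was higher in all KO than in all WT libraries on water (320 ± 36.5 against 257 ± 22.2 CPM, SD, n = 4 each), with a log2 difference of 0.31 (edgeR adjusted p = 0.275) that was 0.28 without KO water replicate 1. In KO mice it was lower in all DSS than in all water libraries, with a log2 difference of -0.33 (edgeR adjusted p = 0.748) that was -0.31 without that library. In each of these 2 comparisons, groups did not overlap for 1 of 8 tested list genes, where they did not for 10.6% and 9.15% of all genes. Both comparisons use the KO water libraries.

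Among PPAR partners, Rxrb, a retinoid X receptor, had log2 differences of -0.69 between KO and WT on water and -0.53 between DSS and water in WT mice, with edgeR adjusted p of 0.153 and 0.0894. DESeq2 called both. Without KO water replicate 1 the difference on water was -0.80. The comparisons share the WT water libraries.

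For pyruvate dehydrogenase and its kinases and phosphatases, 9 of 10 genes were above 0 in KO against WT on water (median 0.44). In WT mice after DSS, 9 of 10 were above 0 (median 0.31). Pdp1, a phosphatase that switches the complex on, was at 0.85 (SE 0.22, edgeR adjusted p = 0.153) on water. The kinases Pdk1 and Pdk3 were also above 0 in both comparisons, and the kinase Pdk2 was the gene below 0 in both. Pdk2 held 49.4 to 63.8 CPM in WT water, 22.3 to 47.8 in KO water and 33.4 to 47.7 in WT DSS. For other PPAR targets, 8 of 10 tested genes were below 0 on water (median -0.50) and 7 of 10 in WT mice after DSS (median -0.34). Over all genes tested, 49.4% were above 0 on water and 48.5% in WT mice after DSS. In KO against WT after DSS, 7 of 10 genes of both lists were above 0 (medians 0.065 for PPAR targets and 0.082 for pyruvate dehydrogenase), and for DSS in KO mice 5 were above and 5 below 0 in each (medians -0.0090 and -0.014). Without KO water replicate 1, the medians on water were -0.43 for PPAR targets and 0.36 for pyruvate dehydrogenase. Pdp1 was then at 0.94 and Pdk2 at -0.84 (edgeR adjusted p = 0.15 for both). Ucp2, one of the PPAR targets, was at 879 ± 61.5 CPM (SD, n = 4) in WT water and 612 ± 87.5 CPM (SD, n = 4) in KO water, a log2 difference of -0.53 with an edgeR adjusted p of 0.160 (-0.61 without KO water replicate 1). The comparisons on water and in WT mice use the same WT water libraries, of which replicates 3 and 4 had a high mitochondrial share.

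**Figure D4:**
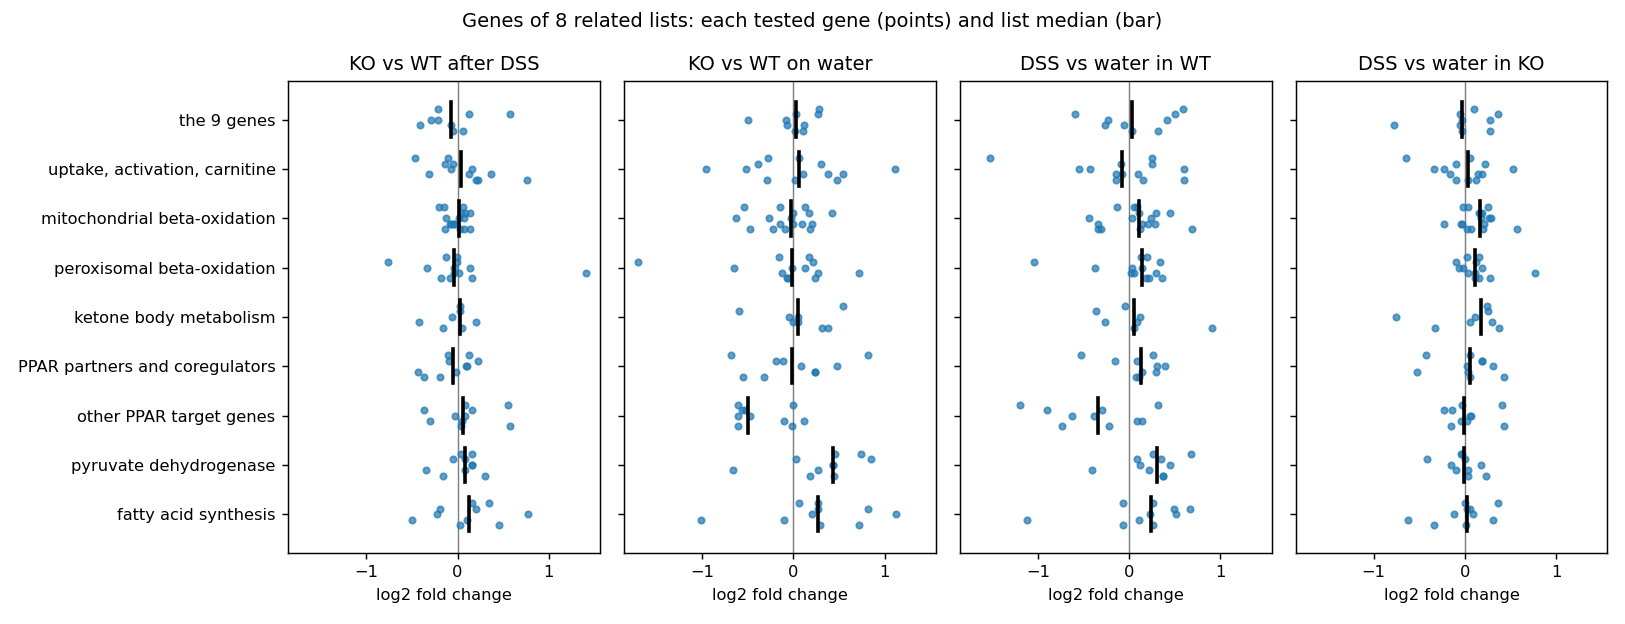
Log2 differences of the tested genes of the 9 genes and 8 related lists (points, 1 per gene) in 4 comparisons, with each list's median as a bar. The medians of most lists lie near 0, and those of other PPAR target genes (-0.50) and of pyruvate dehydrogenase (0.44) in KO against WT on water are the farthest from it.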

How the data were processed

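Poly(A) RNA from EDTA-isolated colonic epithelium was sequenced in 14 libraries. The deposited values were raw read counts per gene of the mm9 genome, which the submitters' processing notes tie to HISAT2 and featureCounts; the strand setting was not given in the sources used here. The table held 37680 genes, of which 37310 were matched to a symbol through the GENCODE annotation of the same build. Groups were taken from the sample labels. Library totals ran from 12882827 to 26087231 counts.

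From these counts, edgeR 4.0.16 (R 4.3.3) fitted each pair of groups with TMM scaling and the quasi-likelihood test, on genes that reached 10 counts in 3 or more libraries of the fit, and p-values were adjusted over all tested genes (Benjamini-Hochberg, threshold 0.05). The difference between both DSS responses came from 1 model of all 4 groups. CPM are counts scaled with TMM factors to a common library size over all 14 libraries, and levels between genes were compared per kb of exon. The scripts were tested on simulated data. Alternatives were RLE size factors, DESeq2 1.42.0, no filter, joint models, a replicate block, single libraries left out and only the libraries with the name prefix D. The fits without libraries over 20% mitochondrial counts, without mitochondrial genes, and with the block but without the first KO water library were added after seeing the data.

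The 9 genes, the pathway lists and the marker lists were chosen with earlier results of these data known. All 9 genes are named in every comparison. Of the lists, called genes were to be named, and for each of the 9 the 3 genes of most similar pattern (Pearson r of log2 CPM, prior count 2). A result of the ketone body list is not reported here.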

Additional observations from a re-analysis of the deposited data

How the results depend on the processing

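Of 756 values of the 9 genes under alternatives, 678 kept their direction and side of the threshold, 6 passed it and 72 changed sign. Of the calls, Acads on water and Cpt1a in WT mice after DSS moved: the count of the 9 genes called was 1 instead of 0 on water with DESeq2, with all 14 libraries in 1 model and with all but KO water replicate 1 in 1 model (Acads adjusted p = 0.0474), and 1 for DSS in WT mice with DESeq2. With single libraries left out, both counts ran from 0 to 1.

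All genes called numbered 114 in KO against WT after DSS, but 492 with DESeq2, 345 without the filter, 2 and 8 in the joint models with and without KO water replicate 1, 52 with the replicate block, 45 with prefix D and 26 to 97 with single libraries left out. On water 1 gene was called, but 796 with DESeq2, 55 without the filter, 1276 and 1154 in the joint models, 460 with the replicate block, 8 with the block and no KO water replicate 1, 106 without libraries of high mitochondrial share and 1 to 1816 with single libraries left out. For DSS in WT mice 0 were called (3612 under an unadjusted p of 0.05), but 1731 with DESeq2, 457 without the filter, 27 with the replicate block, 3 with prefix D, 1 without libraries of high mitochondrial share and 0 to 455 with single libraries left out. In KO mice 1 was called, but 70 with DESeq2, 19 without the filter, 10 and 5 in the joint models, 13 with the block, 4 with the block and no KO water replicate 1 and 1 to 3 with single libraries left out. For the difference of the responses 1 was called, but 8 with DESeq2, 2 without the filter, 30 without libraries of high mitochondrial share and 1 to 6 with single libraries left out. The causes were not tested.

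No value that changed sign was called. Without libraries of high mitochondrial share, the log2 differences on water were -0.15 for Cpt2, -0.16 for Acadl, 0.29 for Ppara, -0.26 for Pdk4 and -0.89 for Angptl4. Cpt2 was -0.041 in WT and 0.060 in KO mice after DSS, with Acads at 0.013 and Angptl4 at 0.76 in KO mice. The difference of the responses was then 0.097 for Cpt2, 0.20 for Acadm, 0.22 for Acadl and 0.13 for Pparg. Within prefix D, DSS in WT mice gave -0.062 for Cpt2 and -0.093 for Acadl, from 0.32. In the joint model without KO water replicate 1, DSS in KO mice gave 0.013 for Acadm and 0.0063 for Acads. For the difference of the responses, Acadm was 0.0058 with RLE factors, 0.0069 with DESeq2, 0.0086 without the filter and 0.0013 without mitochondrial genes.

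Replicate numbers did not pair the samples: same-numbered deviations correlated between -0.081 and 0.056, except the fourth water pair (0.35). That pair shares both the prefix MP and a high share of mitochondrial counts (32.8% and 21.4%). With the replicate block no call on the 9 genes changed, and Angptl4 was -0.23 on water and 0.84 for DSS in KO mice, where Cpt2 was 0.071 and Acads 0.0070. With the block and no KO water replicate 1, Angptl4 was -0.27 on water and 1.24 for DSS in KO mice, where Cpt1a was -0.0012, Acadm 0.038 and Acads 0.24, and the difference of the responses for Acadm was 0.035.

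With single libraries left out, Acadl ran from -0.020 to 0.19 in KO against WT after DSS. On water, Cpt2 ran from -0.072 to 0.074, Acadm from -0.14 to 0.054, Acadl from -0.024 to 0.36, Ppara from -0.23 to 0.0997, Pdk4 from -0.20 to 0.43 and Angptl4 from -0.77 to 0.33. For DSS in WT mice, Cpt2 ran from -0.046 to 0.11, Acadm from -0.13 to 0.069 and Pdk4 from -0.67 to 0.053. In KO mice, Cpt2 ran from -0.092 to 0.060, Acadm from -0.12 to 0.011, Acads from -0.12 to 0.12 and Angptl4 from -0.36 to 0.76. For the difference of the responses, Cpt2 ran from -0.14 to 0.0071, Acadm from -0.12 to 0.082, Acadl from -0.30 to 0.091 and Pparg from -0.27 to 0.027. Depth limits Ppara, Pdk4 and Angptl4, which had at most 137 counts a library.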
